A study of Rattus norvegicus with 12 samples.

Results

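The E2F transcription factors and the pocket proteins that bind them were followed at the RNA level across 4 groups of rat kidney fibroblasts. The 10 genes were chosen by symbol as a known family, with earlier results of these data known: E2f1, E2f2, E2f3, E2f4, E2f5, E2f7, E2f8, Rb1, Rbl1 and Rbl2. They correspond to 11 Ensembl identifiers among the 43360 in the deposited counts, because E2f1 is the name of 2 of them, and all 11 were among the 14601 genes tested. Counts below are over the 10 symbols, with E2f1 taken from the identifier that held 12389 of its counts.

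E2F factors bind the promoters of genes for DNA replication and mitosis. Pocket proteins (the retinoblastoma protein Rb1, p107 encoded by Rbl1, and p130 encoded by Rbl2) hold E2F factors in complexes that repress these promoters, in part through histone deacetylases such as HDAC1, and cyclin-dependent kinases release the factors by phosphorylating the pocket proteins. In resting cells, p130 with E2F4 or E2F5 and the MuvB core forms the DREAM complex, which keeps both early and late cell cycle genes silent. E2f1, E2f2 and E2f3 encode activators, E2f4 and E2f5 encode factors that mostly repress with pocket proteins, and E2f7 and E2f8 encode atypical repressors that need no pocket protein.

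Poly(A) RNA was sequenced from NRK-49F, an established fibroblast line from normal rat kidney. Cells carried either the empty vector pcDNA3.1 or a plasmid for human HDAC1 with a Flag tag, and were held for 24 hours in medium with 0.5% FBS (vehicle) or in that medium with 2 ng/ml of the cytokine TGFB1. Each plasmid was combined with each medium, which gave 4 groups of 3 libraries. The low serum was common to all groups, and the group of each library comes from its title. The titles and the design text conflict, because that text describes every culture as given TGFB1, and the labels do not say whether replicates were separate cultures, so that p-values measure the spread between libraries only.

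Library totals were 18397093 to 36652084 counts. Levels are given in CPM, counts scaled to a common library size by the trimmed mean of M-values (TMM) in edgeR. As a check of the plasmid labels, Hdac1 counts, which may include reads of the human plasmid, averaged 210 and 421 CPM without and with the HDAC1 plasmid in vehicle, and 267 and 464 CPM under TGFB1. Counts listed under Hdac1l, a second symbol that may take such reads, averaged 8.29 and 1172 CPM in vehicle and 9.30 and 1090 CPM under TGFB1. Fibroblast markers summed to 9698 to 17176 CPM per library over the 10 of 12 listed genes in the normalized table, which holds genes with at least 100 counts in total. Col1a1 had 1308298 counts over the 12 libraries and Dcn 168, while Thy1 and Fap were not in that table. Of 10 tubule epithelium markers 3 were in it (Krt8, Pax8 and Slc34a1, with 427785, 238 and 172 counts over the 12 libraries), but not Epcam or Cdh1. The endothelial list had 6 of 9, led by Eng with 34280 counts, without Pecam1, and the leukocyte list had 2 of 8, Cd68 with 1514 counts and Csf1r with 253, without Ptprc. Their part in the results was not tested. A list of 13 heart muscle genes, all of them in that table, had a summed level of 56.4, 338 and 361 CPM in empty vector vehicle replicates 1, 2 and 3. The sums were 208 to 398 CPM in the HDAC1 vehicle group, 368 to 455 CPM in the empty vector TGFB1 group and 122 to 135 CPM in the HDAC1 TGFB1 group. A list of 14 brain genes, 13 of them in the table, summed to 87.6 to 151, 126 to 169, 112 to 122 and 64.3 to 71.0 CPM in the same order of groups. Where a call of a family member ended with these sums in the fit, both values are given.

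Promoter sequence was at hand for 5 of the 10 genes in a RefSeq table of the assembly GRCr8, which holds 250 bases before and 50 bases after each gene's start. The stretches below are shown because E2F factors are known to act at such sites. The letters searched on both strands were an E2F site of 8 letters (TTTCCCGC, TTTCGCGC, TTTGCCGC or TTTGGCGC), its core of 7 letters without the first T, and the cell cycle gene homology region or CHR (TTTGAA or TTCGAA), which MuvB complexes are known to bind. Every site of 8 letters contains the core. Sequences run 5′ to 3′ on the gene's own strand, and capitals mark the matches. The printed stretch of E2f3 lies at chr17:34810301-34810398 and that of E2f7 at chr7:48036666-48036815, both on the plus strand. On the minus strand, the stretch of Rb1 lies at chr15:54911846-54911995, that of Rbl1 at chr3:166289365-166289419 and that of Rbl2 at chr19:32096400-32096432.
E2f3: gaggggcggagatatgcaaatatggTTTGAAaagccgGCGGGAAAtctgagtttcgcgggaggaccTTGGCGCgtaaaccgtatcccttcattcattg
E2f7: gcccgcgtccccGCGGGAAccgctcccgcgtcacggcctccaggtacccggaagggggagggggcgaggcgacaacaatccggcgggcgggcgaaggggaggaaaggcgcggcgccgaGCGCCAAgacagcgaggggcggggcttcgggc
Rb1: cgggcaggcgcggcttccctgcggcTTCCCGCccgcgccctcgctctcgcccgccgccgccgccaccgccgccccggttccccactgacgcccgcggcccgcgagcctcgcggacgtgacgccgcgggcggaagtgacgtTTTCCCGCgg
Rbl1: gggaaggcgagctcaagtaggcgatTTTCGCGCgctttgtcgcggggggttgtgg
Rbl2: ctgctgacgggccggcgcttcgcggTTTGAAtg

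The E2f3 stretch held a CHR from -90 to -85, an E2F site of 8 letters from -78 to -71 on the opposite strand and a separate core from -49 to -43, all counted from the gene start. In Rbl1 the site of 8 letters lay from -18 to -11. In Rb1 it lay from 3 to 10, just past the start, with a core from -113 to -107. E2f7 held only cores, at -225 to -219 and -119 to -113 as printed and at -250 to -244 just outside the stretch, and Rbl2 held only a CHR, from 5 to 10. Of all 33469 windows of 300 bases, 2.14% held an E2F site of 8 letters, 9.52% a core and 19.7% a CHR. Among 25 windows of known E2F target genes of the G1/S transition, the start of DNA replication, these shares were 60%, 76% and 20%. Among 22 windows of G2/M genes, which act in mitosis, they were 4.55%, 18.2% and 72.7%. A match describes letters in the window, not bound protein.

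**Figure D1:**
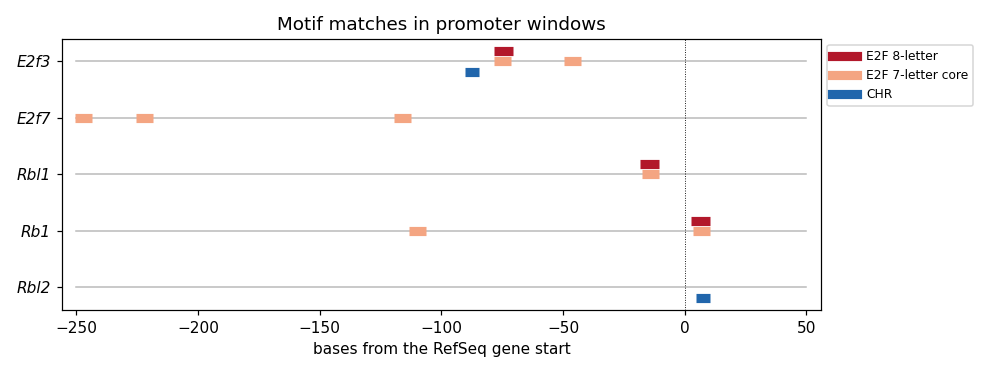
Positions of E2F and CHR letter matches on either strand in the promoter windows of 5 genes, in bases from the RefSeq gene start (dotted line). Red bars are E2F sites of 8 letters, orange bars cores of 7 letters and blue bars CHR matches; E2f3, Rb1 and Rbl1 hold a site of 8 letters, and Rbl2 holds a CHR only.

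Across the groups, HDAC1 in vehicle went with higher E2f1, E2f7, E2f8 and Rbl1. The calls of E2f8 and Rbl1 ended without some single libraries. TGFB1 raised E2f3, E2f4, E2f7, E2f8 and Rbl1 and lowered Rbl2 with either plasmid, although the Rbl1 call with HDAC1 ended in 12 of 20 alternatives. E2f1 rose with TGFB1 under the empty vector and was not called for TGFB1 under HDAC1, and the difference between these effects was itself called. Rb1 passed the threshold in 1 comparison, TGFB1 with HDAC1, and E2f2 and E2f5 were not called in any comparison. These are bulk samples, in which a changed share of cycling cells and a changed amount of RNA per cell cannot be told apart.

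**Figure D2:**
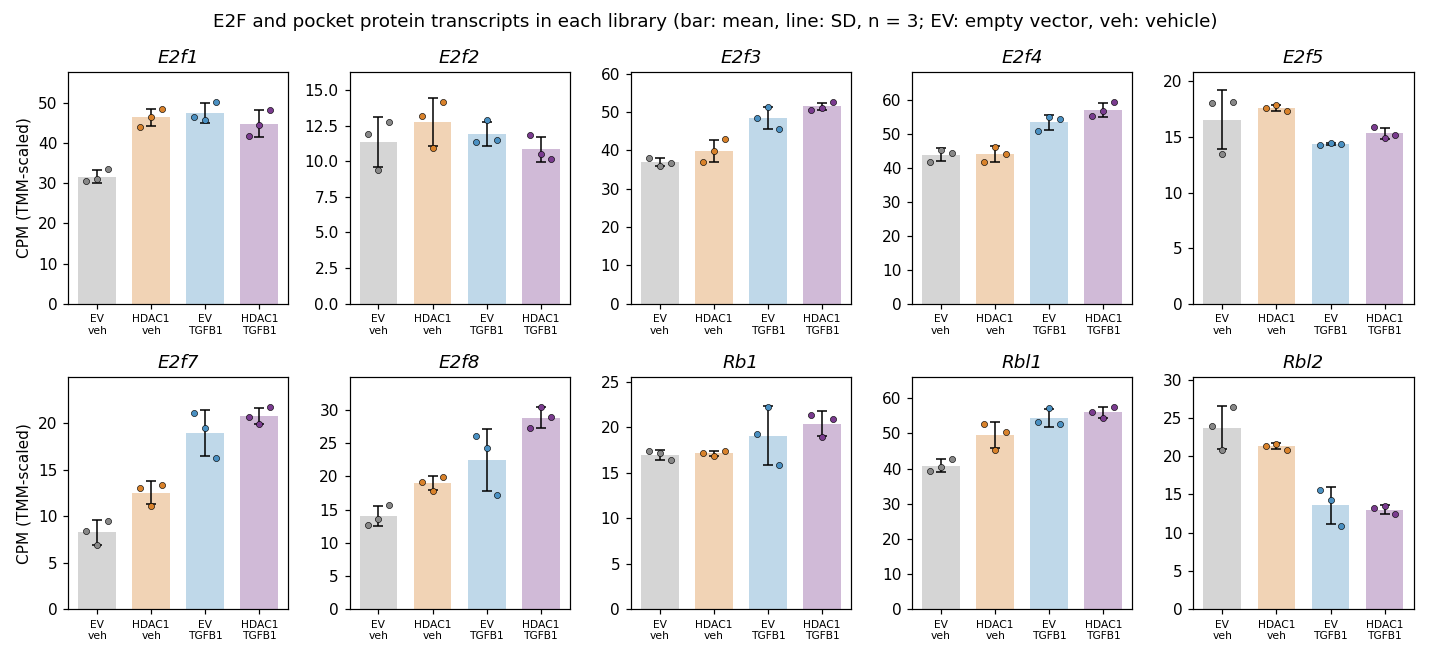
TMM-scaled CPM of each of the 10 genes in the 12 libraries, with 1 point per library, bars at the mean of 3 and lines for the SD, by group (EV, empty vector; veh, vehicle). E2f1 is low only in the empty vector vehicle group, at 30.4 to 33.4 CPM, E2f7 climbs over the groups, and Rbl2 is low in both TGFB1 groups.

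The activator E2f1 was measured at 30.4, 31.1 and 33.4 CPM in the 3 libraries with empty vector and vehicle and at 44.0, 46.4 and 48.5 CPM with HDAC1 and vehicle. With TGFB1 it was at 46.4, 45.7 and 50.1 CPM with the empty vector and at 41.7, 44.3 and 48.3 CPM with HDAC1. The empty vector vehicle group lay below all 9 other libraries, and the remaining groups overlapped one another. HDAC1 in vehicle raised E2f1 1.46-fold (log2 fold change 0.55 ± 0.07 SE, 95% interval 0.39 to 0.70, edgeR adjusted p = 5.88e-05). TGFB1 with the empty vector raised it 1.5-fold (log2 fold change 0.58, edgeR adjusted p = 1.53e-06). With TGFB1 present, HDAC1 went with a log2 difference of -0.08 (95% interval -0.23 to 0.07, edgeR adjusted p = 0.554), and TGFB1 on top of HDAC1 with -0.05 (95% interval -0.20 to 0.11, edgeR adjusted p = 0.625).

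The difference between the HDAC1 effects with and without TGFB1 was therefore tested directly. For E2f1 it was -0.63 ± 0.10 SE on the log2 scale (95% interval -0.85 to -0.41, edgeR adjusted p = 0.0167). E2f1 ranked 6 of 14601 genes by the p of this test and was the 1 gene called among the 10, where 0.479% of all genes were called 0.342% lower and 0.137% higher. The call ended without HDAC1 vehicle replicate 3 (-0.59, edgeR adjusted p = 0.0538) and without HDAC1 TGFB1 replicate 1 (-0.59, edgeR adjusted p = 0.0590). It also ended with the summed heart and brain transcripts as a covariate (-0.50, edgeR adjusted p = 0.713), a fit that called 0 genes of 14601 and had 792 at an unadjusted p under 0.05. Heart sums of the TGFB1 groups did not overlap, at 122 to 135 CPM with HDAC1 and 368 to 455 CPM with the empty vector. That covariate therefore cannot be fully separated from the HDAC1 difference with TGFB1. Heart sums of the HDAC1 groups did not overlap either, at 208 to 398 CPM in vehicle and 122 to 135 CPM with TGFB1. The same limit therefore holds for the TGFB1 difference with HDAC1, including that of Rb1 and Rbl1 below. Without empty vector vehicle replicate 1, the library with the fewest heart transcripts, the E2f1 call held at -0.58 (edgeR adjusted p = 0.0285). That fit kept the gap in heart sums between the TGFB1 groups, and the part of these transcripts was not tested.

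E2f1 has a second Ensembl identifier, ENSRNOG00000016708, with 9 to 37 counts per library or 0.447 to 1.27 CPM. It was called in no edgeR comparison, with 0 at an unadjusted p under 0.05. With the counts of both identifiers added together, the difference for E2f1 was -0.62 (edgeR adjusted p = 0.0172).

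E2f2, also an activator, was at 11.9, 9.38 and 12.8 CPM with empty vector and vehicle and at 13.2, 10.9 and 14.1 CPM with HDAC1 and vehicle. TGFB1 libraries held it at 11.3, 12.9 and 11.5 CPM with the empty vector and at 11.8, 10.5 and 10.2 CPM with HDAC1. All 4 groups overlapped with their neighbours in the order of means. The difference of the HDAC1 effects was -0.30 (95% interval -0.66 to 0.062, edgeR adjusted p = 0.490). Between groups the widest fitted difference was -0.24 for TGFB1 with HDAC1 (95% interval -0.49 to 0.015, edgeR adjusted p = 0.112), and it was called without HDAC1 vehicle replicate 2 (-0.36, edgeR adjusted p = 0.0252) and with scaling by library totals (-0.33, edgeR adjusted p = 0.0332). A long noncoding RNA overlaps E2f2 in the RefSeq annotation.

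E2f3, an activator needed for entry into the cell cycle, was at 38.0, 36.0 and 36.7 CPM with empty vector and vehicle and at 36.9, 39.7 and 42.9 CPM with HDAC1 and vehicle. Under TGFB1 it stood at 48.5, 51.2 and 45.7 CPM with the empty vector and at 50.7, 51.1 and 52.6 CPM with HDAC1. All 6 TGFB1 libraries lay above all 6 vehicle libraries, while the plasmid groups overlapped within each treatment. TGFB1 raised E2f3 by 0.39 ± 0.07 SE on the log2 scale with the empty vector (edgeR adjusted p = 0.000106) and by 0.37 ± 0.07 SE with HDAC1 (edgeR adjusted p = 0.000188). The HDAC1 effect was 0.11 in vehicle (95% interval -0.042 to 0.26, edgeR adjusted p = 0.363) and 0.086 with TGFB1 (95% interval -0.062 to 0.23, edgeR adjusted p = 0.501). Its difference between the treatments was -0.021 (95% interval -0.23 to 0.19, edgeR adjusted p = 0.960).

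E2f4, the main repressive E2F of resting cells, was at 41.6, 45.3 and 44.4 CPM with empty vector and vehicle and at 41.7, 46.2 and 44.0 CPM with HDAC1 and vehicle. With TGFB1 it was at 50.8, 55 and 54.3 CPM with the empty vector and at 55.1, 56.8 and 59.3 CPM with HDAC1. The vehicle groups coincided, and every TGFB1 library lay above them. TGFB1 raised E2f4 by 0.29 with the empty vector (edgeR adjusted p = 0.00145) and by 0.38 with HDAC1 (edgeR adjusted p = 9.52e-05). In the TGFB1 cells all 3 HDAC1 libraries exceeded the 3 empty vector libraries, but the difference of 0.097 was not called (95% interval -0.044 to 0.24, edgeR adjusted p = 0.413).

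E2f5, the partner of p130 and p107 beside E2F4, was at 18.1, 13.5 and 18.1 CPM with empty vector and vehicle and at 17.6, 17.9 and 17.4 CPM with HDAC1 and vehicle. TGFB1 libraries held it at 14.2, 14.5 and 14.4 CPM with the empty vector and at 15.9, 14.9 and 15.1 CPM with HDAC1. Replicate 2 of the empty vector vehicle group was the lowest of all 12 libraries, and it made that group overlap the TGFB1 groups. The TGFB1 difference was -0.21 with the empty vector (edgeR adjusted p = 0.0892) and -0.20 with HDAC1 (edgeR adjusted p = 0.0969), and neither was called. Without that replicate the first was -0.33 (edgeR adjusted p = 0.00406) and the second -0.20 (edgeR adjusted p = 0.0392). The second was also called without empty vector TGFB1 replicate 3 (-0.23, edgeR adjusted p = 0.0478) and in a fit to the 2 HDAC1 groups alone (-0.21, edgeR adjusted p = 0.0430), and with scaling by library totals both were called (-0.27 and -0.29, edgeR adjusted p = 0.0300 and 0.0177). The spans of E2f5 and Rbis overlap in the RefSeq annotation. Exons were not compared and the strand used for counting is not stated, so reads in the shared part may be of either gene.

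The atypical repressor E2f7, itself a target of E2F1, showed the widest span of the 10 genes, 2.52-fold between group means. It was at 8.39, 6.84 and 9.48 CPM with empty vector and vehicle and at 13.1, 11.1 and 13.4 CPM with HDAC1 and vehicle. Under TGFB1 it stood at 21.1, 19.4 and 16.2 CPM with the empty vector and at 20.6, 19.9 and 21.7 CPM with HDAC1. The empty vector vehicle, HDAC1 vehicle and TGFB1 libraries formed 3 steps without overlap, and the 2 TGFB1 groups overlapped. HDAC1 in vehicle raised E2f7 by 0.59 ± 0.12 SE on the log2 scale (edgeR adjusted p = 0.00237), against 0.13 with TGFB1 (95% interval -0.11 to 0.37, edgeR adjusted p = 0.527). The difference between these effects, -0.46 (95% interval -0.81 to -0.11), was not called (edgeR adjusted p = 0.220). TGFB1 raised E2f7 2.28-fold with the empty vector (1.19 ± 0.12 SE on the log2 scale, edgeR adjusted p = 5.85e-08) and 1.66-fold with HDAC1 (log2 fold change 0.73, edgeR adjusted p = 2.19e-05).

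E2f8, the second atypical repressor, was at 12.7, 13.6 and 15.6 CPM with empty vector and vehicle and at 19.2, 17.9 and 19.9 CPM with HDAC1 and vehicle. With TGFB1 it was at 26.0, 24.2 and 17.2 CPM with the empty vector and at 27.3, 30.4 and 28.9 CPM with HDAC1. Libraries with HDAC1 exceeded those with the empty vector in both treatments, and replicate 3 of the empty vector TGFB1 group lay below the HDAC1 vehicle libraries. HDAC1 raised E2f8 by 0.44 ± 0.12 SE in vehicle (edgeR adjusted p = 0.0183), while its difference of 0.36 ± 0.12 SE with TGFB1 was not called (95% interval 0.11 to 0.60, edgeR adjusted p = 0.0699). TGFB1 raised E2f8 1.61-fold with the empty vector (log2 fold change 0.69, edgeR adjusted p = 8.58e-05) and 1.52-fold with HDAC1 (log2 fold change 0.60, edgeR adjusted p = 0.000217). The 2 HDAC1 effects on E2f8 differed by -0.081 (95% interval -0.43 to 0.27, edgeR adjusted p = 0.891).

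The vehicle call of E2f8 rested on single libraries. It ended without empty vector vehicle replicate 1 (0.37, edgeR adjusted p = 0.10) or 2 (0.44, 0.0638) and without HDAC1 vehicle replicate 1 (0.45, 0.0601) or 3 (0.42, 0.0692). In the other direction, its difference with TGFB1 was called with no filter on low counts (0.36, edgeR adjusted p = 0.00575), without empty vector TGFB1 replicate 1 (0.47, 0.0488) and without empty vector vehicle replicate 1 (0.38, 0.0469).

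Rb1, the retinoblastoma gene, was at 17.4, 17.2 and 16.4 CPM with empty vector and vehicle and at 17.1, 16.9 and 17.4 CPM with HDAC1 and vehicle. TGFB1 libraries held it at 19.3, 22.2 and 15.8 CPM with the empty vector and at 21.4, 18.9 and 21.0 CPM with HDAC1. The vehicle groups overlapped closely, and replicate 3 of the empty vector TGFB1 group was the lowest library of all. HDAC1 differences were 0.015 in vehicle (95% interval -0.20 to 0.23, edgeR adjusted p = 0.945) and 0.090 with TGFB1 (95% interval -0.12 to 0.30, edgeR adjusted p = 0.646). Rb1 was higher with TGFB1 in HDAC1 cells by 0.25 (edgeR adjusted p = 0.0454), a call that ended in 13 of 20 alternatives, with values of 0.16 to 0.27 over all of them. Among these were the fits without empty vector TGFB1 replicate 1 and without any of the 3 HDAC1 vehicle or the 3 HDAC1 TGFB1 libraries, and the fit with the heart and brain sums (0.19, edgeR adjusted p = 0.348). With the empty vector the TGFB1 difference was 0.17 (edgeR adjusted p = 0.163), and it was called without replicate 3 of the empty vector TGFB1 group (0.27, edgeR adjusted p = 0.0189). The spans of Rb1 and Lpar6 overlap in the RefSeq annotation, and reads in the shared part may be of either gene.

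Rbl1, which encodes p107, the pocket protein made as cells enter the cycle, was at 39.2, 40.4 and 42.8 CPM with empty vector and vehicle and at 52.6, 45.3 and 50.3 CPM with HDAC1 and vehicle. Under TGFB1 it stood at 53.1, 57.2 and 52.6 CPM with the empty vector and at 56.1, 54.3 and 57.4 CPM with HDAC1. As in E2f7, the empty vector vehicle group was lowest, the HDAC1 vehicle group lay above it, and both TGFB1 groups lay higher still and overlapped. The step to TGFB1 was narrow here, from 52.57 CPM in HDAC1 vehicle replicate 1 to 52.64 CPM in empty vector TGFB1 replicate 3. HDAC1 in vehicle raised Rbl1 by 0.28 ± 0.07 SE (edgeR adjusted p = 0.0114). This call ended without empty vector vehicle replicate 1 (0.25, edgeR adjusted p = 0.0631) and without HDAC1 vehicle replicate 1 (0.24, edgeR adjusted p = 0.0658). With TGFB1 the HDAC1 difference was 0.042 (95% interval -0.11 to 0.19, edgeR adjusted p = 0.774). TGFB1 raised Rbl1 by 0.41 with the empty vector (edgeR adjusted p = 5.69e-05). With HDAC1 the TGFB1 difference of 0.18 was called (edgeR adjusted p = 0.0413), but the call ended in 12 of 20 alternatives. These included leaving out HDAC1 vehicle replicate 2 or 3, empty vector TGFB1 replicate 1 or 3, or any of the 3 HDAC1 TGFB1 libraries, and without single libraries the value ran from 0.092 to 0.23. With the heart and brain sums in the fit it was 0.19 and not called (edgeR adjusted p = 0.174). The difference of the HDAC1 effects, -0.23 (95% interval -0.44 to -0.026), was not called (edgeR adjusted p = 0.312). A pseudogene and a long noncoding RNA overlap Rbl1 in the RefSeq annotation.

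Rbl2, which encodes p130, the pocket protein of resting cells, was the 1 gene of the 10 called lower in any comparison between groups. It was at 23.9, 20.8 and 26.4 CPM with empty vector and vehicle and at 21.4, 21.7 and 20.9 CPM with HDAC1 and vehicle. With TGFB1 it was at 15.6, 14.3 and 10.9 CPM with the empty vector and at 13.2, 13.5 and 12.4 CPM with HDAC1. Every TGFB1 library lay below every vehicle library, and within each treatment the plasmid groups overlapped. TGFB1 lowered Rbl2 to 0.573 of its level with the empty vector (-0.80 ± 0.11 SE on the log2 scale, edgeR adjusted p = 3.85e-06) and to 0.611 with HDAC1 (log2 fold change -0.71 ± 0.11 SE, edgeR adjusted p = 2.15e-05). These calls held in all 20 alternatives, with values of -0.93 to -0.69 and of -0.80 to -0.70. The HDAC1 difference was -0.16 in vehicle (95% interval -0.38 to 0.063, edgeR adjusted p = 0.366) and -0.065 with TGFB1 (95% interval -0.31 to 0.18, edgeR adjusted p = 0.792). The spans of Rbl2 and Aktip overlap in the RefSeq annotation, and reads in the shared part may be of either gene.

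**Figure D3:**
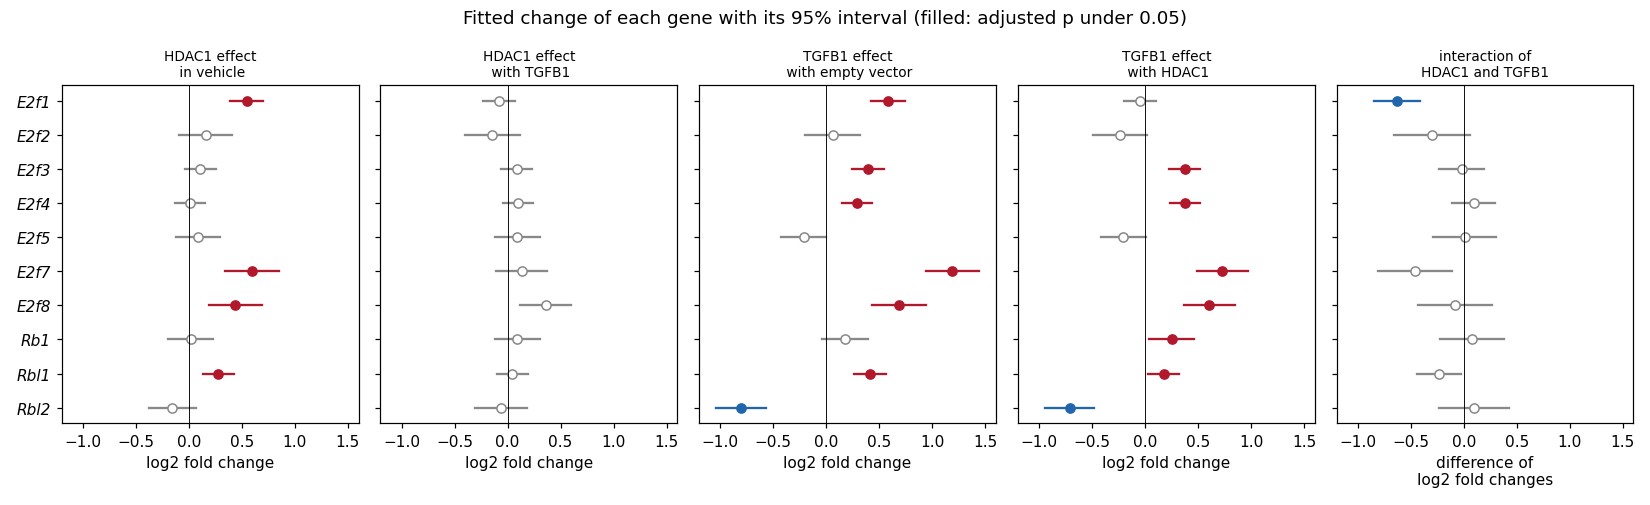
Fitted log2 fold change of each gene (x axis) in 5 comparisons, with its 95% interval before adjustment; filled points passed an adjusted p of 0.05 in edgeR. Rbl2 is the only filled point left of 0 for TGFB1 (-0.80 and -0.71), and E2f1 (-0.63) is the only filled point in the interaction.

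Counted over the family, HDAC1 in vehicle raised 4 of 10 genes and lowered 0, where 14.0% of all genes tested were called 6.64% higher and 7.32% lower. Unadjusted, the same 4 were at a p under 0.05, and DESeq2 called 4. The count was 2 without empty vector vehicle replicate 1 and without HDAC1 vehicle replicate 1, which left E2f1 and E2f7. The median log2 fold change was 0.13 over the 10 genes and -0.0082 over all genes. The groups did not overlap for those 4 genes, against 15.2% of all genes higher without overlap and 17.3% lower. An exact permutation test of 3 against 3 libraries cannot give a p below 0.1.

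With TGFB1 present, HDAC1 changed 0 of the 10 genes in edgeR, where 6.53% of all genes were called (2.17% higher and 4.36% lower). DESeq2 also called 0, and 1 gene, E2f8, had an unadjusted p under 0.05. The median was 0.088, against -0.0015 over all genes. For 3 of the genes (E2f4, E2f5 and E2f8) every HDAC1 library exceeded every empty vector library, as for 13.3% of all genes, and 0 lay below, against 15.6%.

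TGFB1 with the empty vector raised 6 genes and lowered 1, where 50.9% of all genes were called (25.9% higher and 25.0% lower). TGFB1 with HDAC1 also raised 6 and lowered 1, where 49.1% of all genes were called (24.9% higher and 24.2% lower). Groups did not overlap for 6 genes raised and 1 lowered with the empty vector (28.6% and 27.4% of all genes) and for 6 and 2 with HDAC1 (30.0% and 30.7%). The 6 raised genes were E2f1, E2f3, E2f4, E2f7, E2f8 and Rbl1 with the empty vector, and with HDAC1 they were E2f3, E2f4, E2f7, E2f8, Rbl1 and Rb1. Medians over the family were 0.34 and 0.21, against 0.012 and -0.019 over all genes. These comparisons share groups with those of HDAC1, so that the empty vector vehicle libraries enter both.

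Ratios of counts within a library need no scaling between libraries, although without a length correction they are compared only between groups. For each count of Rbl2 there were 1.73 ± 0.18 counts of Rbl1 (SD, n = 3) with empty vector and vehicle, 2.32 ± 0.20 with HDAC1 and vehicle, 4.08 ± 0.72 with empty vector and TGFB1, and 4.31 ± 0.30 with HDAC1 and TGFB1. The single libraries ran from 1.62 to 1.94, 2.09 to 2.46, 3.41 to 4.84 and 4.03 to 4.63, so that both plasmid groups separated in vehicle and overlapped with TGFB1. The balance of p107 to p130 transcripts thus differed more between treatments than between plasmids. For each count of E2f1 there were 0.260 ± 0.035 and 0.270 ± 0.029 counts of E2f7 in the vehicle groups with empty vector and HDAC1, and 0.401 ± 0.069 and 0.465 ± 0.027 in the TGFB1 groups. For E2f8 the ratios were 0.441 ± 0.026 and 0.410 ± 0.025 in vehicle and 0.478 ± 0.118 and 0.646 ± 0.044 with TGFB1. In vehicle, E2f7 and E2f8 therefore kept their ratio to E2f1 within the spread of the libraries, and with HDAC1 and TGFB1 all 3 libraries lay above all vehicle libraries for both ratios.

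**Figure D4:**
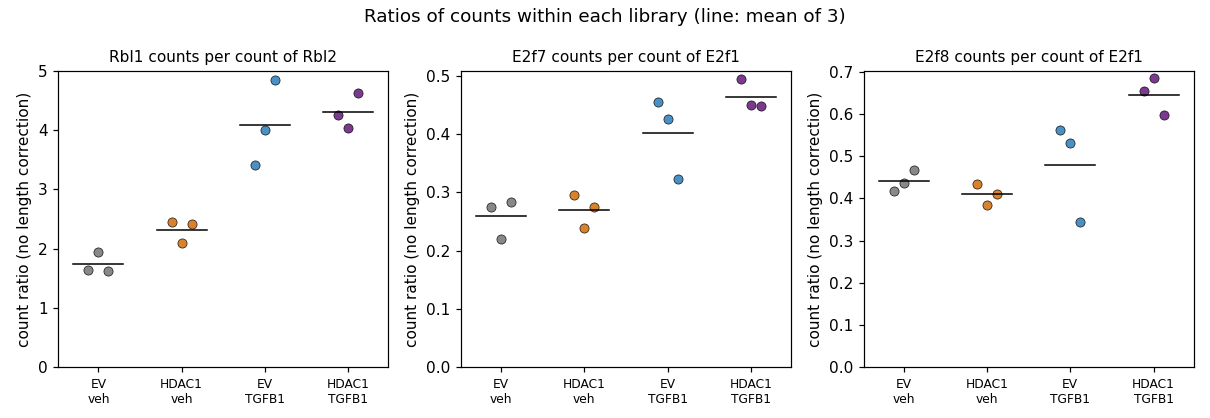
Counts of Rbl1 per count of Rbl2, and of E2f7 and E2f8 per count of E2f1, in each library by group (points, with lines at the mean of 3; EV, empty vector; veh, vehicle; no length correction). Rbl1 per Rbl2 is 1.62 to 2.46 in the vehicle libraries and 3.41 to 4.84 in the TGFB1 libraries.

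The genes whose pattern over the 12 libraries was closest to each member were found by the root mean square difference of log2 CPM after centring each gene. For E2f1 these were Kif22, Cdkn3 and Dscc1, with differences of 0.099, 0.099 and 0.10 on a gene that spanned 0.72. E2f7 (span 1.65) was closest to Mybl2 (0.10), Cdca7 (0.10) and Nrg1 (0.11), and E2f8 (span 1.26) to Ticrr (0.097), Lin9 (0.12) and Atr (0.12). Rbl1 (span 0.55) was closest to Mapre1 (0.057), Topbp1 (0.060) and C1h9orf40 (0.062), and Rbl2 (span 1.27) to Abcc3 (0.069), Scly (0.084) and Gigyf1 (0.11). E2f3 was closest to Cdan1, Brd1 and Tiam1 (0.048 to 0.052), and Rb1 to Setd2, Virma and Wapl (0.049 to 0.058). E2f2, E2f4 and E2f5 were closest to Il17ra (0.098), Nus1 (0.055) and Atp6v0a1 (0.065).

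Genes that work with the family were then counted from lists of known partners and targets. For comparison, the share of all genes called was 14.0% for HDAC1 in vehicle and 6.53% for HDAC1 with TGFB1. It was 50.9% for TGFB1 with the empty vector, 49.1% with HDAC1, and 0.479% for the difference of the HDAC1 effects. Among the dimer partners and E2f6, a repressor without a pocket protein site, 0 of 3 were called for HDAC1 in vehicle, with 1 at an unadjusted p under 0.05 and 0 called by DESeq2. With TGFB1 and the empty vector Tfdp1, which encodes the dimer partner DP1, rose by 0.50 (edgeR adjusted p = 1.58e-06) and E2f6 by 0.22 (0.0134), while Tfdp2 fell by 0.31 (0.00969). The E2f6 call ended without empty vector vehicle replicate 1 or empty vector TGFB1 replicate 1. With HDAC1, TGFB1 raised Tfdp1 by 0.40 (edgeR adjusted p = 2.33e-05).

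Of 7 genes for B-MYB, FOXM1 and the MuvB core, which DREAM contains, 4 rose with HDAC1 in vehicle and 0 fell. They were Mybl2 (0.43, edgeR adjusted p = 0.00112), Foxm1 (0.44), Lin9 (0.41) and Lin54 (0.25). With TGFB1 and the empty vector 5 rose, led by Mybl2 at 1.11 (edgeR adjusted p = 4.14e-10), and with HDAC1 TGFB1 raised 4. The MuvB subunit Lin54 was near the threshold for HDAC1 in vehicle (edgeR adjusted p = 0.0431), and its call ended without each of empty vector vehicle replicates 1 and 2 and HDAC1 vehicle replicates 1 and 3.

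Of 14 corepressors that pocket proteins recruit, HDAC1 in vehicle raised 4, among them Hdac1, whose counts may include plasmid reads, and lowered 1. Beside Hdac1 itself these included Suv39h1, a histone methyltransferase (0.37, edgeR adjusted p = 0.00163), Dnmt1, the maintenance DNA methyltransferase (0.27), and Smarca2, an ATPase of the SWI/SNF complex, which fell by 0.34 (0.000961). TGFB1 with the empty vector raised 6 and lowered 3, and Smarca2 fell by 1.00 (edgeR adjusted p = 5.55e-11) while Hdac2 rose by 0.67. With HDAC1, TGFB1 raised 5 and lowered 3, with Smarca2 at -0.77 and Hdac2 at 0.69.

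A list of 9 genes held cyclins and kinases that phosphorylate pocket proteins and, beside them, the phosphatase gene Cdc25a. Of these, 4 rose with HDAC1 in vehicle: Ccna2 (0.46, edgeR adjusted p = 8.05e-05), Cdk6 (0.37), Ccne2 (0.36) and Cdc25a (0.23). The count was 2 without empty vector vehicle replicate 1 and without HDAC1 vehicle replicate 1, in which Ccne2 and Cdc25a were not called. Cdc25a was also not called when replicate 2 of empty vector vehicle or replicate 3 of HDAC1 vehicle was left out. With TGFB1, HDAC1 raised Ccna2 (0.23, edgeR adjusted p = 0.0368), and that call ended without empty vector TGFB1 replicate 1 or 3 and without any of the 3 HDAC1 TGFB1 libraries. TGFB1 raised 8 with the empty vector and 6 with HDAC1, with Ccne2 at 0.97 and 0.77 and Cdk2 at 0.70 and 0.67.

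Of 4 CDK inhibitors tested, Cdkn1b (p27), the inhibitor of resting cells, fell with HDAC1 in vehicle by 0.45 (edgeR adjusted p = 8.81e-05), and Cdkn2c (p18) rose by 0.28 (0.0079). TGFB1 lowered Cdkn1b by 0.72 with the empty vector (edgeR adjusted p = 8.09e-09) and by 0.25 with HDAC1 (0.0029). The HDAC1 effects on Cdkn1b differed by 0.47 ± 0.09 SE (edgeR adjusted p = 0.0262), opposite in sign to E2f1. Leaving out single libraries gave 0.43 to 0.52 over 12 fits and ended this call in 7 of them, those without replicate 2 of empty vector vehicle, replicate 1 or 3 of HDAC1 vehicle, replicate 1 of empty vector TGFB1 or any HDAC1 TGFB1 replicate. TGFB1 with HDAC1 lowered all 4, with Cdkn2c at -0.43, Cdkn2d (p19) at -0.53 and Cdkn1a (p21) at -0.18, which was not called without HDAC1 vehicle replicate 1 or HDAC1 TGFB1 replicate 1.

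Known targets of the family were counted last. Of 29 E2F targets of the G1/S transition, HDAC1 in vehicle raised 26 and lowered 0, with a median of 0.41, and of 24 G2/M targets of DREAM and FOXM1 it raised all 24, with a median of 0.54. Examples were the replication factors Mcm10 (34.8 to 52.3 CPM, 0.58, edgeR adjusted p = 6.33e-05) and Cdc6 (41.4 to 60.9 CPM, 0.56) and the checkpoint kinase gene Bub1b (61.2 to 92.7 CPM, 0.60, edgeR adjusted p = 3.70e-06). Both lists were known from earlier results to move in these data, so their counts are a description.

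With TGFB1 present, HDAC1 raised 2 of the 29 G1/S targets (median 0.11) and 7 of the 24 G2/M targets (median 0.18). The G1/S genes were Pola1, a DNA polymerase subunit (0.27, edgeR adjusted p = 0.0212), and Mcm6 (0.20, 0.0425), and G2/M examples were Kif11 (0.26, 0.0177) and Cenpe (0.38, 0.0266). These counts rested on few libraries: the G2/M count was 0 without empty vector TGFB1 replicate 3, HDAC1 TGFB1 replicate 1 or HDAC1 TGFB1 replicate 3 and with the covariate of heart and brain transcripts, and it was 1 without empty vector TGFB1 replicate 1. Pola1 lost its call in those same 3 fits without 1 library, and Mcm6 when HDAC1 vehicle replicate 2, empty vector TGFB1 replicate 1 or any HDAC1 TGFB1 replicate was left out.

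TGFB1 with the empty vector raised all 29 G1/S and all 24 G2/M targets, with medians of 0.65 and 0.63. The origin genes Orc1 (13.3 to 30.3 CPM, 1.18) and Cdc6 (41.4 to 87.6 CPM, 1.08) and the nuclear factor Cdca7 (12.7 to 30.4 CPM, 1.25) were among them. TGFB1 with HDAC1 raised 26 and 17, with medians of 0.32 and 0.26, and 0 fell in either list. The fitted difference of the HDAC1 effects, TGFB1 minus vehicle, was above 0 for 1 of the 29 G1/S targets (median -0.36) and 0 of the 24 G2/M targets (median -0.37), against a median of 0.0071 over all genes. Unadjusted p was under 0.05 for 24 and 21 of them. The difference was called for 1 of the G1/S targets (Cdc6, -0.44, edgeR adjusted p = 0.0418) and 8 of the G2/M targets. In all of these the HDAC1 effect was lower with TGFB1 than in vehicle. Examples were Kif20a (-0.56, edgeR adjusted p = 0.0153) and Ube2c (-0.59, edgeR adjusted p = 0.0262). The 8 were 33.3% of the list and 11.4% of the 70 genes called in that test. They were 0 without HDAC1 TGFB1 replicate 1 or 3 and with the covariate, a fit that called 0 genes in all. Ube2c also lost its call when replicate 2 of empty vector vehicle or replicate 1 or 3 of HDAC1 vehicle was left out. For Cdc6, leaving out single libraries gave -0.49 to -0.39 over 12 fits, of which 9 lost the call. The other 3 fits were those without replicate 3 of empty vector vehicle, replicate 2 of HDAC1 vehicle or replicate 2 of empty vector TGFB1.

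**Figure D5:**
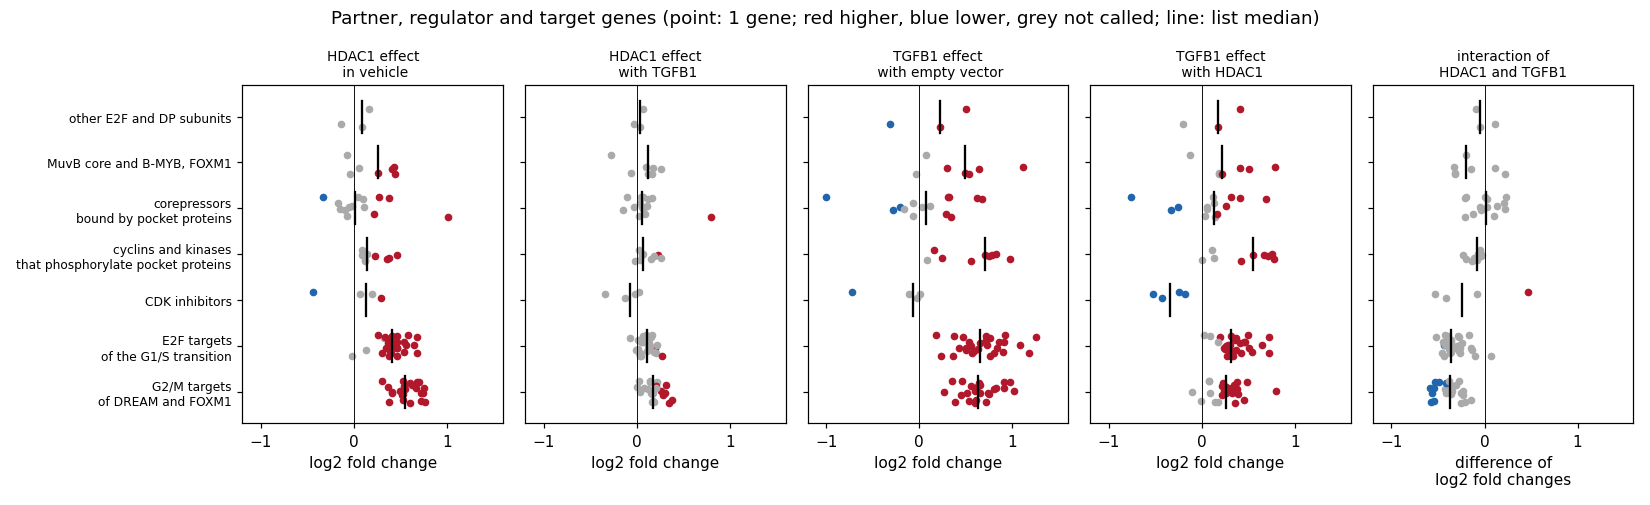
Log2 fold change (x axis) of single genes in 7 lists of partners, regulators and targets across 5 comparisons, with lines at each list's median; red points were called higher and blue points lower. The G1/S and G2/M target lists sit right of 0 for HDAC1 in vehicle (medians 0.41 and 0.54) and closer to 0 with TGFB1 (0.11 and 0.18).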

How the data were processed

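The authors deposited raw counts per gene and a normalized signal. The latter was checked and is each count divided by 1 constant per library, for the 14275 genes with at least 100 counts in total. Trim Galore 0.6.7, featureCounts of Subread 2.0.1 and DESeq2 1.44 were used upstream, per the submitters' processing notes. Those notes list mm10, a mouse build, although the identifiers are those of rat genes. The aligner, the build of the counts and the strand of counting are not given in the sources used here.

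Tests used the deposited counts in edgeR 4.0.16 (R 4.3.3). The function filterByExpr kept 14601 genes, with no less than 99.879% of the counts of any library, and TMM set the scaling. A robust quasi-likelihood model with 1 mean per group was fitted to all 12 libraries (8 residual degrees of freedom, common biological coefficient of variation 7.61%). Tests were two-sided, with Benjamini-Hochberg adjustment over all genes tested and calls at an adjusted p under 0.05. The steps were tested on simulated data. Of simulated 1.5-fold changes, 69% were recovered for HDAC1 in vehicle and 63% for TGFB1 with the empty vector, so changes of this size can be missed.

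The genes and lists were chosen with earlier results of these data known. All 10 family members were named, and up to 4 genes per list and comparison by smallest adjusted p. Of the listed genes, Cenpa, Ccnd2, Cdkn1c, Cdkn2a and Cdkn2b were among those not tested, and 1 item is not reported here. Nearest patterns used log2 CPM (prior count 2) of genes with a mean log2 CPM of at least 2. The alternatives tried were DESeq2 size factors, the DESeq2 1.42.0 test, library totals, no filter, a mean CPM of at least 1, fitting only the groups in a contrast, blocking on replicate number and omitting single libraries. Added after seeing the data were a covariate for heart and brain transcripts and the sum of both E2f1 identifiers.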

Additional observations from a re-analysis of the deposited data

Results flagged for a closer look

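E2f1 was singled out because the effect of HDAC1 on it differed between the 2 treatments by a test of the difference itself. The log2 fold change was 0.55 in vehicle and -0.08 with TGFB1, and the difference was -0.63 (edgeR adjusted p = 0.0167). All 3 HDAC1 libraries lay above the 3 empty vector libraries in vehicle, whereas the groups overlapped with TGFB1. The call ended without HDAC1 vehicle replicate 3 or HDAC1 TGFB1 replicate 1 and with the covariate for heart and brain transcripts.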

How the results depend on the processing

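Of 1089 values of the family members under alternatives, 1015 kept their direction and side of the threshold, 34 lost a call, 12 gained one and 28 turned in sign, 0 of the last in a called value. Leaving out 1 library gave 2 to 4 members called for HDAC1 in vehicle, 0 to 1 for HDAC1 with TGFB1, 7 to 8 for TGFB1 with the empty vector, 5 to 8 with HDAC1 present, and 0 to 1 for the interaction. With no filter on low counts 1 member was called for HDAC1 with TGFB1, and with the heart and brain covariate 0 were called for the interaction. Numbers shared by replicates did not pair the libraries (18 correlations from -0.087 to 0.12, 2 of them over 0.1). With the replicate block, 4, 0, 7, 5 and 1 members were called in the order of the 5 comparisons, and Rb1 (edgeR adjusted p = 0.0558) and Rbl1 (0.0579) lost the call for TGFB1 with HDAC1. Signs turned with the covariate for E2f4 in vehicle (-0.029), for E2f1 (0.013) and E2f5 (-0.023) for HDAC1 with TGFB1, for E2f1 (0.037) for TGFB1 with HDAC1, and in the interaction for E2f5 (-0.15), E2f8 (0.040) and Rb1 (-0.020). The E2f5 interaction also turned with a mean CPM of at least 1 (-0.011) and with library totals (-0.025). Without single libraries, signs turned within these ranges: in vehicle E2f4 -0.028 to 0.057 and E2f5 -0.017 to 0.18; for HDAC1 with TGFB1 Rbl2 -0.20 to 0.041, Rb1 -0.026 to 0.23 and the second E2f1 identifier -0.61 to 0.043; for TGFB1 with the empty vector E2f2 -0.049 to 0.16 and that identifier -0.41 to 0.25. In the interaction the ranges were E2f3 -0.069 to 0.040, E2f5 -0.064 to 0.13, E2f8 -0.24 to 0.026, Rb1 -0.050 to 0.20 and Rbl2 -0.047 to 0.19. Counts of called list genes moved most in the interaction, from 0 to 12 for G1/S targets (1 reported), 0 to 14 for G2/M targets (8 reported) and 0 to 3 for CDK inhibitors (1 reported). For HDAC1 with TGFB1 they ran from 0 to 4 for G1/S targets (2 reported), 0 to 10 for G2/M targets (7 reported), 0 to 3 for cyclins and kinases (1 reported) and 0 to 1 for MuvB genes and for CDK inhibitors (0 reported). For TGFB1 with HDAC1 the G2/M count of 17 ran from 8 to 18 and that of other E2F and DP subunits, 2, from 1 to 3. Those subunits ran from 0 to 1 for HDAC1 in vehicle (0 reported), cyclins and kinases there from 2 to 4 (4 reported), and CDK inhibitors from 1 to 2 for TGFB1 with the empty vector (1 reported). The causes were not tested. Depth limits the second E2f1 identifier most, at 9 to 37 counts per library.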
